A study of Homo sapiens with 6 samples.

Results

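Translation elongation and termination factors were described in 786-O cells, an established line of clear cell renal cell carcinoma that lacks functional VHL. The 10 genes were chosen by symbol (EEF1A1, EEF1B2, EEF1D, EEF1G, EEF2, EEF2K, EIF5A, ETF1, GSPT1 and ABCE1), and all 10 were found among the 19669 genes of the deposited table. The table holds mRNA levels from RNA-seq and levels of ribosome-protected mRNA fragments (footprints) from Ribo-seq, in 1 library per label and assay, 6 libraries in all. The EV libraries came from cells with an empty vector, the WT libraries carry the column name PHYHD1-WT, and the MT libraries carry the column name PHYHD1-MT, for which the series title names a deletion numbered 107 to 130. The design text instead calls WT an untreated group and MT an overexpression of PHYHD1, so libraries are named here by label only. All groups share the same parental line, and Ribo-seq cells received 100 µg/ml cycloheximide, an inhibitor of elongation. Each condition was grown in 3 dishes, and no source used here says whether dishes were pooled or how many clones stand behind a label. With 1 library per label, differences have no replicate check and no p-value can be given.

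Elongation adds amino acids to the growing chain. eEF1A brings aminoacyl-tRNA to the ribosome as a complex with GTP, the eEF1B subunits exchange its GDP for GTP, and eEF2 moves the ribosome along the mRNA by a codon. eIF5A carries the modified lysine hypusine and helps slow peptide bonds to form, at polyproline stretches above all, and it also acts in termination. At a stop codon eRF1 and the GTPase eRF3 release the chain, and the ATPase ABCE1 then splits the ribosome. Many mRNAs of the elongation machinery, like those of ribosomal proteins, begin with a terminal oligopyrimidine (TOP) tract, a cytosine followed by an unbroken run of pyrimidines, through which mTORC1 controls their translation.

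The bases around annotated transcription starts are shown for 3 members with a TOP tract there and 3 without a match, since TOP mRNAs are later described as a group. That group is set by what is known of the mRNAs, not by the match shown here. Sequences are from RefSeq on GRCh38.p14, in which 9 members were searched and EEF1D was not. Each runs 5′ to 3′ on the strand that reads as the mRNA, with 20 bases before the start and 20 from the start on. Capitals mark a C followed by 4 or more C or T that begins within 5 bases of the annotated start. Where a gene has several annotated starts, the one with the tract nearest to it is shown, or the one listed first where none has a tract.
EEF1A1 (chr6:73521013-73521052, minus strand): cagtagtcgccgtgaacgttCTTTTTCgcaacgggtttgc
EEF1B2 (chr2:206159875-206159914, plus strand): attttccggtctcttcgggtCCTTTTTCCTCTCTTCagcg
EEF2 (chr19:3985444-3985483, minus strand): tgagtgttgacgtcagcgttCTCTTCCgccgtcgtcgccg
EEF1G (chr11:62573872-62573911, minus strand): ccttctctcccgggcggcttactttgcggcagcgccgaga
EIF5A (chr17:7306979-7307018, plus strand): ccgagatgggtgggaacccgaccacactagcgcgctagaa
ETF1 (chr5:138543217-138543256, minus strand): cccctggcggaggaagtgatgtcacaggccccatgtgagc

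The tract began exactly at an annotated start in EEF1A1 (7 bases), EEF2 (7 bases) and EEF1B2 (16 bases, at 1 of its 2 starts). It was looked for only where its first C lies within 5 bases of a start, on the strand that reads as the mRNA. Of all 35116 annotated starts 4.07% begin with it, and of 78 starts of cytosolic ribosomal protein genes 60.3% do. EEF1G, whose mRNA is known as a TOP mRNA, has a shorter pyrimidine run at its start and did not match. EIF5A (6 starts), ETF1 (2), GSPT1 (2) and ABCE1 (1) had no match within 5 bases. EEF2K had a match of 5 bases that begins 5 before its start, a looser position that 21.1% of all starts also fill. Which start the cells used was not measured.

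Over EV, WT and MT, PHYHD1 itself had 0.092, 118 and 110 FPKM of mRNA and 0, 222 and 905 TPM of footprints. Between 10400 and 10897 genes reached 1 unit in a library. Spacing of low values placed the WT and MT RNA-seq libraries at 1.06 and 1.05 times the depth of EV, and the WT and MT Ribo-seq libraries at 0.783 and 1.06 times. Read totals are unknown, so no counting interval is given. The genes chosen as renal carcinoma markers, PAX8 (75.9 to 94.0 FPKM), VIM, KRT8, KRT18 and EPAS1 (12.1 to 16.6 FPKM), were detected in every library. Of the 5 genes chosen as markers of other cell types, CD3E and PECAM1 were at 0 throughout, and PTPRC, ALB and EPCAM did not exceed 0.363 units. How specific each of these genes is to a cell type was not tested.

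EEF1A1, the tRNA-delivering GTPase, was the most abundant member in mRNA, and its 3 partners were well below it. EEF1A1 mRNA had 3004 FPKM (EV), 3088 FPKM (WT) and 2811 FPKM (MT), rank 9 of all genes in each library. In footprints it reached 3001 TPM (EV), 2637 TPM (WT) and 2529 TPM (MT). The EV library was thus the highest in footprints, while in mRNA EV lay between the others. EEF1B2, the nucleotide exchange subunit eEF1B alpha, had mRNA values of 251, 262 and 275 FPKM in EV, WT and MT. Its footprints were 1032, 874 and 891 TPM in the same order, again highest in EV. EEF1D, the second exchange subunit, was at 252, 280.2 and 268 FPKM and at 245, 242 and 236 TPM. EEF1G, the gamma subunit that holds the complex together, was the steadiest of the 4, at 631, 616 and 617 FPKM and 497, 502 and 484 TPM.

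Within a library the proportions of the eEF1 subunits differed between the assays. On the per-length scale EEF1B2 and EEF1D mRNA were nearly equal, with ratios of EEF1B2 to EEF1D of 0.994, 0.936 and 1.03 in EV, WT and MT. In footprints the same ratio was 4.21, 3.60 and 3.78. Relative to EEF1G, EEF1A1 stood at 4.76, 5.01 and 4.56 in mRNA and at 6.05, 5.26 and 5.23 in footprints. Relative to EEF1G, EEF1D stood between 0.399 and 0.455 in mRNA and between 0.483 and 0.494 in footprints. EEF1B2 was below EEF1G in every RNA-seq library and above it in every Ribo-seq library. Such ratios between genes depend on the length by which each value was divided, which no source used here states.

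**Figure D1:**
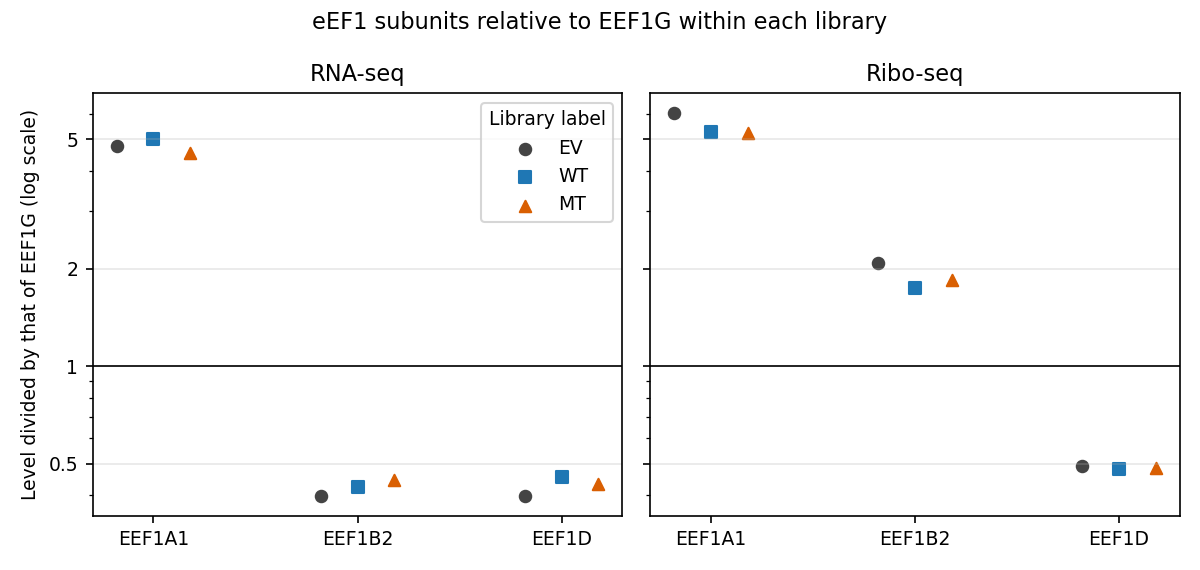
Level of EEF1A1, EEF1B2 and EEF1D divided by that of EEF1G in the same library (log axis), for RNA-seq and Ribo-seq; each point is 1 library, coloured by label. EEF1B2 lies below 1 in the 3 RNA-seq libraries and between 1.74 and 2.08 in the 3 Ribo-seq libraries.

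The second eEF1A gene was also expressed in these cells. EEF1A2, the isoform known from neurons and muscle and found raised in several tumours, had 280.4, 275 and 283 FPKM and 443, 428 and 360 TPM in EV, WT and MT. It made up 8.18% to 9.13% of the summed EEF1A1 and EEF1A2 mRNA level and 12.5% to 13.97% of the summed footprint level. The coding sequences of EEF1A1 and EEF1A2 are alike, and no source used here says how reads that fit both were counted. RefSeq lists 50 EEF1A1 pseudogenes, 8 each for EEF1B2, EEF1D and EEF1G, 3 each for EIF5A and ETF1 and 2 for ABCE1. None of them is a row of the table, so reads that fit both a gene and its copies make the values of these members uncertain.

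eEF2, the translocase, was as abundant as EEF1G in mRNA. EEF2 mRNA had 625 FPKM (EV), 696 FPKM (WT) and 634 FPKM (MT). Its footprints were 546, 488 and 469 TPM in the same order, so that EV was lowest in mRNA and highest in footprints. EEF2K encodes the calmodulin-dependent kinase that phosphorylates and inactivates eEF2, and it was the least abundant member in both assays. EEF2K mRNA was 5.84, 5.54 and 5.91 FPKM, and its footprints were 10.6, 10.2 and 9.33 TPM. EEF2 mRNA exceeded that of its kinase 107, 126 and 107 times in EV, WT and MT, and EEF2 footprints did so 51.7, 47.8 and 50.3 times.

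eIF5A held the highest footprint level of the 10. EIF5A mRNA had 273 FPKM (EV), 320.2 FPKM (WT) and 293 FPKM (MT). Its footprints stood at 3888, 4473 and 4337 TPM, which is rank 19, 16 and 16 of all genes. EV was the lowest library in both assays. The footprint level of EIF5A was 1.30, 1.70 and 1.71 times that of EEF1A1 in EV, WT and MT, whereas its mRNA level was 0.0909, 0.104 and 0.104 times. The paralogue EIF5A2 was low beside it, at 14.3, 17.1 and 12.5 FPKM and 31.6, 38.6 and 33.0 TPM, and made up 0.754% to 0.856% of the summed footprint level of the pair. EIF5AL1, a near-identical copy of EIF5A, did not exceed 0.033 FPKM and 0.403 TPM.

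The termination and recycling factors were less abundant. ETF1, which encodes eRF1 and reads the stop codon, had 94.6 FPKM (EV), 109 FPKM (WT) and 98.1 FPKM (MT). ETF1 footprints were 119, 100.2 and 115 TPM, so the WT library was highest in mRNA and lowest in footprints. GSPT1, which encodes eRF3a, stood at 125, 139 and 122 FPKM and at 51.2, 59.5 and 49.98 TPM, with WT highest in both assays. Its paralogue GSPT2 was listed at 0 in all 6 libraries. ABCE1, the recycling ATPase, stood at 41.2, 53.7 and 47.3 FPKM, with EV lowest and WT highest. Its footprints followed the same order at 52.0, 58.4 and 55.0 TPM. ETF1 was below GSPT1 in mRNA, with ratios of 0.756, 0.787 and 0.806, and above it in footprints, with ratios of 2.33, 1.68 and 2.30 in EV, WT and MT.

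**Figure D2:**
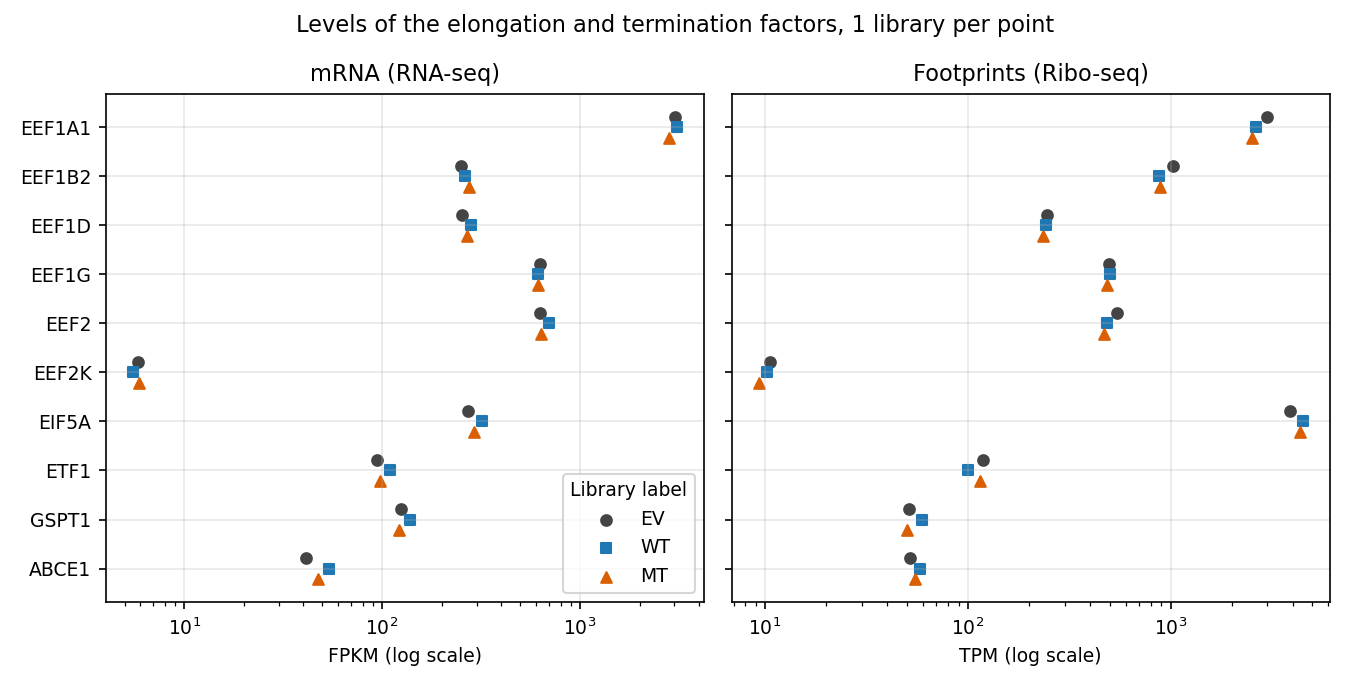
Levels of the 10 genes in RNA-seq (FPKM) and Ribo-seq (TPM), both on log axes, with 1 point per library and the label as colour and shape. EEF1A1 leads the mRNA levels at 2811 to 3088 FPKM and EIF5A leads the footprints at 3888 to 4473 TPM, and the labels of a gene lie close together.

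From high to low, the mRNA order by median over labels was EEF1A1, EEF2, EEF1G, EIF5A, EEF1D, EEF1B2, GSPT1, ETF1, ABCE1 and EEF2K. EEF2 and EEF1G overlapped across the 3 libraries, as did EIF5A with EEF1D and EEF1D with EEF1B2, and the other neighbours did not. The footprint order was EIF5A, EEF1A1, EEF1B2, EEF1G, EEF2, EEF1D, ETF1, ABCE1, GSPT1 and EEF2K. There only EEF1G with EEF2 and ABCE1 with GSPT1 overlapped. Together the 10 genes held 1.12% to 1.21% of the RNA-seq column sum and 0.918% to 0.944% of the Ribo-seq sum. For a single member the highest library exceeded the lowest by 1.03 times (EEF1G) to 1.30 times (ABCE1) in mRNA and by 1.04 times (EEF1G and EEF1D) to 1.19 times (EEF1A1, ETF1 and GSPT1) in footprints.

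The footprint level divided by the mRNA level spread widely among the members. EIF5A had ratios of 14.2, 13.97 and 14.8 in EV, WT and MT, above 98.9% to 99.1% of the genes with 10 FPKM or more in the library. EEF1B2 had ratios of 4.12, 3.33 and 3.25, above 86.5% to 91.0% of genes and near the median of cytosolic ribosomal protein genes (4.26, 3.82 and 4.05). GSPT1 was the lowest member at 0.410, 0.428 and 0.411, above 17.7% to 18.5% of genes. The gene median was 1.10, 1.13 and 1.10 in EV, WT and MT. EEF1A1 (0.999, 0.854 and 0.900), EEF1D (0.973, 0.865 and 0.880), EEF1G (0.786, 0.815 and 0.784) and EEF2 (0.873, 0.701 and 0.740) lay below that median in all 3 labels. ABCE1 (1.26, 1.09 and 1.16) and ETF1 (1.26, 0.917 and 1.17) lay on either side of it. EEF2K, under the minimum of 10 FPKM, had 1.81, 1.84 and 1.58. The units of the assays differ, so a ratio of 1 has no meaning of its own and only the order and the position among genes can be read.

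**Figure D3:**
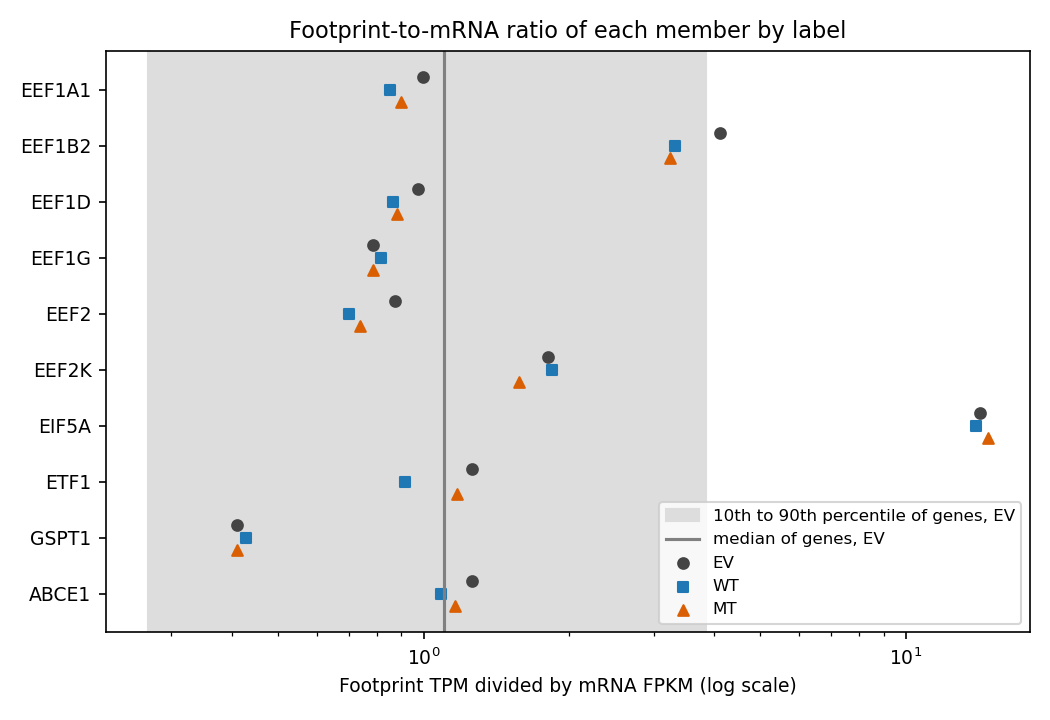
Footprint TPM divided by mRNA FPKM for each gene (log axis), 1 point per label. The grey band spans the 10th to 90th percentile of genes with 10 FPKM or more in EV. The grey line is their median of 1.10. EIF5A lies to the right of the band at 13.97 to 14.8, EEF1B2 lies near its upper edge and GSPT1 is the leftmost gene at 0.410 to 0.428.

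Differences between labels were taken on log2(value + 1), and 2 rules of size were used: a gene was called under the 25% rule where the higher value lay at least 25% above the lower (0.32 on the log2 scale), and under the 2-fold rule at a log2 difference of 1. In mRNA, WT over EV, 8 of the 10 members were above 0 with a median of 0.15, beside 48.9% above 0 and a median of -0.01 over the 11032 genes tested. ABCE1 was 1.30 times higher in WT (log2 of 0.37) and was the only member called under the 25% rule, 1 of 10 against 14.2% of all genes. EIF5A (0.23), ETF1 (0.21), EEF2 (0.15), EEF1D (0.15) and GSPT1 (0.15) came next without reaching the rule. EEF1G (-0.04) and EEF2K (-0.07) were the 2 members below 0. None of the 10 passed the 2-fold rule, which 0.499% of genes passed. The median was 0.11 for translation initiation factors, of which 30 of 35 were above 0, and -0.06 for cytosolic ribosomal proteins, of which 20 of 79 were. Among the 730 genes at 100 FPKM or more, a level that ABCE1 does not reach, 4.25% differed by as much as ABCE1. Of the same genes 6.58% were called under the 25% rule.

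Footprints of WT over EV did not follow the mRNA for several members. The median was -0.03 with 4 of 10 above 0, beside a median of 0.03 and 53.4% above 0 over 10700 genes. GSPT1 (0.21), EIF5A (0.20) and ABCE1 (0.16) were above 0, as in mRNA. ETF1 (-0.25), EEF1B2 (-0.24), EEF1A1 (-0.19) and EEF2 (-0.16) were below 0 although their mRNA was above. In mRNA EEF1A1 (0.04) and EEF1B2 (0.07) were only slightly above 0. How many of all genes differ in sign between the assays was not counted. Of the 1561 genes at 100 TPM or more, footprints of 28.8% (for ETF1) to 45.9% (for EEF2) were as far from 0. EEF1D (-0.02), EEF1G (0.02) and EEF2K (-0.05) were near 0. No member passed the 25% rule, which 33.8% of genes passed and 17% of genes at 100 TPM or more. ABCE1, GSPT1 and EEF2K do not reach that level. No member passed the 2-fold rule, which 3.36% of genes passed and 0.192% of genes at 100 TPM or more. The WT Ribo-seq library is the shallowest by the spacing of its low values, at 0.783 times EV, and its part in these values was not tested.

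The difference in footprints relative to mRNA, taken as the Ribo-seq difference minus the RNA-seq difference, was below 0 for 7 of 10 members in WT over EV. Its median was -0.19, beside 0.04 over 10335 genes, of which 46.3% were below 0. ETF1 (-0.45) was the only member called under the 25% rule, 1 of 10 against 40.9% of genes. Among 638 genes at 100 units or more in both assays 20.7% were called, and 7.84% were as far from 0 as ETF1. EEF2 (-0.32), EEF1B2 (-0.30), EEF1A1 (-0.23) and ABCE1 (-0.21) followed. With the libraries centred on their median ratio every member moved by -0.02, and 3 were called instead of 1. EEF2 and EEF1B2, just short of the rule before, joined ETF1. The share of all genes called after centring was not counted. Without centring EEF1G (0.05), GSPT1 (0.06) and EEF2K (0.02) were slightly above 0. None reached 2-fold, against 4.21% of genes and 0.627% of genes at 100 units or more in both assays.

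In MT over EV the mRNA of the members differed less. The median was 0.04 with 7 of 10 above 0, beside -0.01 and 48.7% above 0 over 11016 genes. ABCE1 (0.19) and EEF1B2 (0.13) were the highest and EEF1A1 (-0.10) the lowest. No member was called under the 25% or the 2-fold rule, against 11.6% and 0.29% of genes. Of genes at 100 FPKM or more 3.19% and 0.139% were called.

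In footprints of MT over EV 8 of 10 members were below 0, beside 47.9% of 10737 genes. The median over members was -0.05, beside 0.01 over those genes. EEF1A1 (-0.25), EEF2 (-0.22) and EEF1B2 (-0.21) were the lowest, at 0.843, 0.859 and 0.864 times EV. Of the 1536 genes at 100 TPM or more, 12.6% were as far from 0 as EEF1A1. EEF2K (-0.16) followed, and EEF1D, ETF1, EEF1G and GSPT1 lay between -0.06 and -0.03. EIF5A (0.16) and ABCE1 (0.08) were above 0. None was called under the 25% or the 2-fold rule, against 28.1% and 2.83% of genes. Of the genes at 100 TPM or more 5.73% and 0.13% were called. Relative to mRNA the median over members was -0.13, beside 0.02 over 10331 genes. EEF1B2 (-0.34) was the only member called under the 25% rule, 1 of 10 against 34.8% of genes. Among genes at 100 units or more in both assays 9.73% were called. No member reached 2-fold, against 3.51% of genes and 0.319% of genes at 100 units or more in both assays. Both comparisons use the same EV libraries, so that a high or low EV value moves both.

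**Figure D4:**
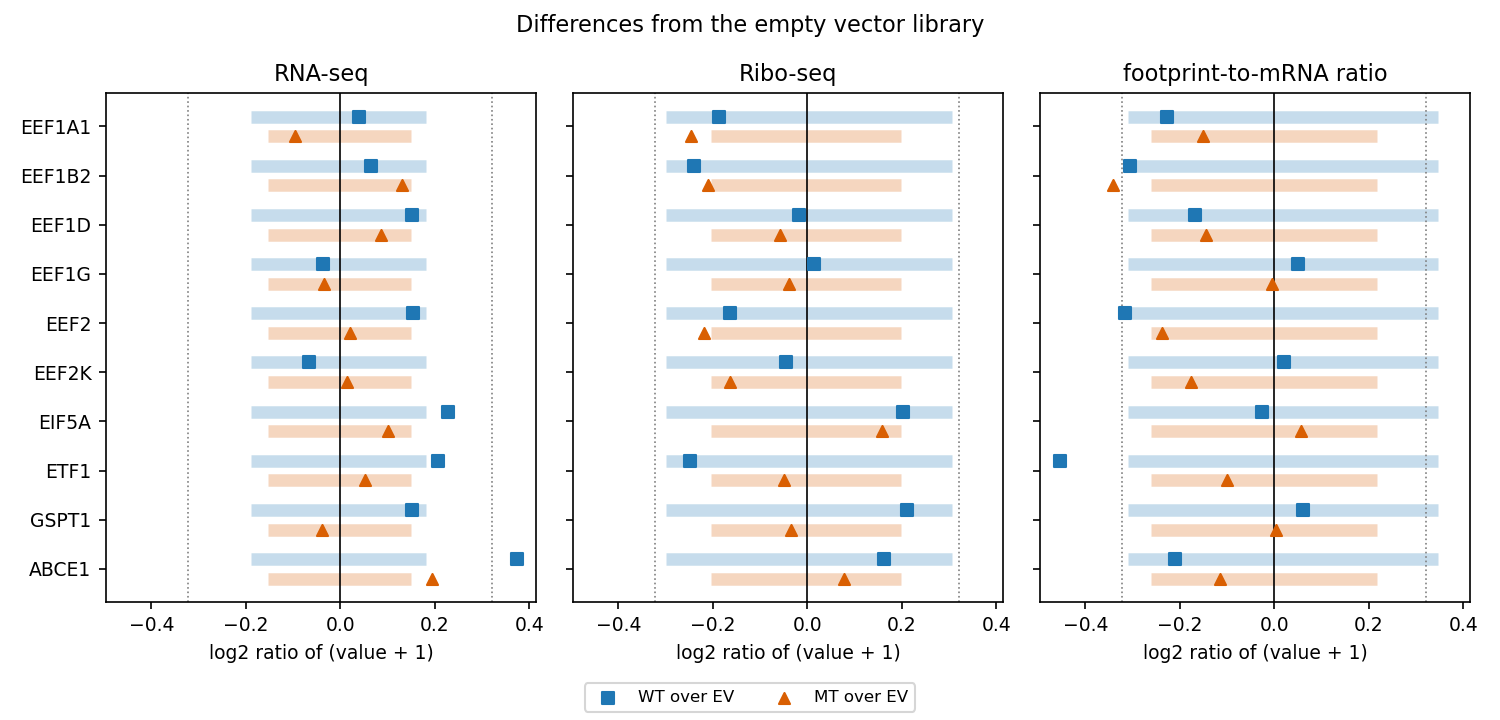
Log2 ratio of (value + 1) of WT over EV (squares) and MT over EV (triangles) for each gene, in RNA-seq, Ribo-seq and the difference of the 2; pale bars span the 10th to 90th percentile of genes at 100 units or more, and dotted lines mark the 25% rule. ABCE1 in RNA-seq (0.37, WT) and ETF1 (-0.45, WT) and EEF1B2 (-0.34, MT) in the ratio are the points beyond the dotted lines.

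Set against each other without EV, WT and MT differed little in the members. In mRNA the median of WT over MT was 0.13 with 7 of 10 above 0, beside 0.00 and 51.0% above 0 over all genes. GSPT1 (0.19) and ABCE1 (0.18) were the highest. None was called under the 25% or the 2-fold rule, against 14.2% and 0.508% of genes (5.31% and 0.272% at 100 FPKM or more). In footprints the median was 0.05 with 8 of 10 above 0, beside a median of 0.01 and 51.6% above 0 over all genes. GSPT1 (0.25) and ETF1 (-0.20) were the extremes, while EEF1A1 (0.06), EEF2 (0.06) and EEF1B2 (-0.03) were close to 0. None was called, against 32.6% of genes under the 25% rule and 3.19% under the 2-fold rule (14% and 0.257% at 100 TPM or more). Relative to mRNA ETF1 (-0.35) was called under the 25% rule, 1 of 10 against 41.1% (22% at 100 units or more). No member reached 2-fold, against 4.82% (1.1% at 100 units or more). The ETF1 ratio in MT (1.17) was thus nearer to EV (1.26) than that in WT (0.917) was.

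The members fall into the 5 known TOP mRNAs (EEF1A1, EEF1B2, EEF1D, EEF1G and EEF2) and 5 others. Footprints of the TOP members had a median of -0.16 in WT over EV with 4 of 5 below 0, and of -0.21 in MT over EV with 5 of 5 below 0. The other 5 had medians of 0.16 and -0.03 in the same comparisons. Relative to mRNA the TOP members had medians of -0.23 and -0.15, with 4 and 5 of 5 below 0, and the other 5 had -0.03 and -0.10. Among the TOP members EEF1A1, EEF1B2 and EEF2 had the lowest footprint differences in both comparisons. The tract was found at an annotated start of these 3 and not of EEF1G, while the start of EEF1D was not searched. A link between the tract and the differences was not tested. In WT over MT the footprint differences of EEF1A1, EEF1B2 and EEF2 were 0.06, -0.03 and 0.06. Cytosolic ribosomal proteins, the largest TOP family, had footprint medians of -0.13 and -0.09, with 57 and 64 of 79 below 0. Relative to mRNA their medians were -0.03 and -0.06. These groups were set side by side without a test. Over all genes 46.6% and 47.9% of footprint differences were below 0, as were 46.3% and 48.0% of the differences relative to mRNA. Among genes at 100 units or more the shares were 49.0% and 51.8% in footprints. Relative to mRNA they were 47.5% and 56.3%, with medians of 0.01 and -0.03.

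Genes for enzymes that modify the factors were mostly low in abundance. eEF2 carries diphthamide, a modified histidine that is the target of diphtheria toxin, and of the 7 genes of its synthesis 4 had footprints called lower under the 25% rule in WT over EV and 1 called higher, beside 15.7% of all genes lower and 18.1% higher. DPH3, an iron-binding electron donor of the first step, had 78.6, 61.8 and 69.4 TPM in EV, WT and MT, and DPH6, the amidating enzyme, 8.12, 12.8 and 7.55 TPM. Apart from DPH3 the genes called lower, DPH1, DPH2 and DPH7, were under 10 TPM in every library. In MT over EV, where 12.6% of all genes were lower, 2 of the 7 were, both under 10 TPM, and DPH5, a methyltransferase, was at 36.9 TPM in EV and 31.8 in MT. Of 6 lysine methyltransferases of eEF1A and eEF2, 4 were lower in WT over EV and 3 in MT over EV, beside the same 15.7% and 12.6% of all genes, and none was higher. EEF1AKMT2 had 36.3, 24.97 and 27.9 TPM in EV, WT and MT, and EEF1AKMT4 14.03, 11.0 and 15.5 TPM. EEF1AKMT3 and EEF2KMT, lower in both comparisons, were under 10 TPM in every library, and EEF2KMT did not exceed 2.07 TPM. In mRNA 0 of the 6 methyltransferases passed the 25% rule in WT over EV, beside 14.2% of all genes. In MT over EV 1 passed, EEF1AKMT1, which was lower (7.58 and 5.73 FPKM), beside 11.6% of all genes. Of the 7 diphthamide genes 1 passed in mRNA in WT over EV, DPH6, which was lower (4.79 FPKM in EV and 2.69 in WT). In MT over EV 1 of the 7 passed in mRNA and was higher. The shares of all genes are the same 14.2% and 11.6%.

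Hypusine on eIF5A is made by DHPS and completed by the iron-dependent hydroxylase DOHH, and neither passed the 25% rule in footprints. DHPS stood at 119, 130.2 and 125 TPM and DOHH at 14.7, 12.7 and 13.1 TPM in EV, WT and MT. DOHH mRNA was 5.37, 6.999 and 6.31 FPKM, past the 25% rule in WT over EV, as was the mRNA of 14.2% of all genes. eRF1 is hydroxylated by JMJD4, a dioxygenase that like PHYHD1 belongs to the 2-oxoglutarate-dependent family, and methylated by N6AMT1 with TRMT112. JMJD4 footprints were 10.9, 7.98 and 7.91 TPM, called lower in both comparisons with EV, with mRNA at 5.48, 5.60 and 5.41 FPKM. N6AMT1 footprints were 19.4, 12.9 and 16.0 TPM, past the rule in WT over EV, while TRMT112 stood at 768, 804 and 883 TPM. Of all genes tested 33.8% in WT over EV and 28.1% in MT over EV passed the same rule in footprints.

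Few regulators of the eEF2 kinase passed the 25% rule in footprints, and the counts here stand beside 18.1% of all genes higher and 15.7% lower in WT over EV, and 15.5% higher and 12.6% lower in MT over EV. Of 9 genes 1 was called higher in footprints in WT over EV, RPS6KA1 (11.7 and 17.0 TPM), a kinase of the RSK family that inhibits EEF2K. In MT over EV 2 were higher, of which RPS6KB1, the mTORC1-dependent S6 kinase, stood at 34.5 and 43.8 TPM. None of the 9 reached the rule in mRNA in either comparison. Of all genes 14.2% reached it in mRNA in WT over EV and 11.6% in MT over EV. Among 4 genes of small subunit recycling none reached the rule in WT over EV, where the most abundant, EIF3J and DENR, stood at 331 and 90.7 TPM in WT beside 269.9 and 80.3 in EV, and EIF2D alone was higher in MT over EV (9.39 and 12.6 TPM). Of 9 mitochondrial elongation and release factors, MTRF1L was lower in WT over EV (11.5 and 8.32 TPM). In MT over EV 1 was higher, GUF1 (9.08 and 11.9 TPM), and 1 was lower, under 10 TPM. None of the mitochondrial factors reached the rule in mRNA over EV, beside the same 14.2% and 11.6% of all genes.

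**Figure D5:**
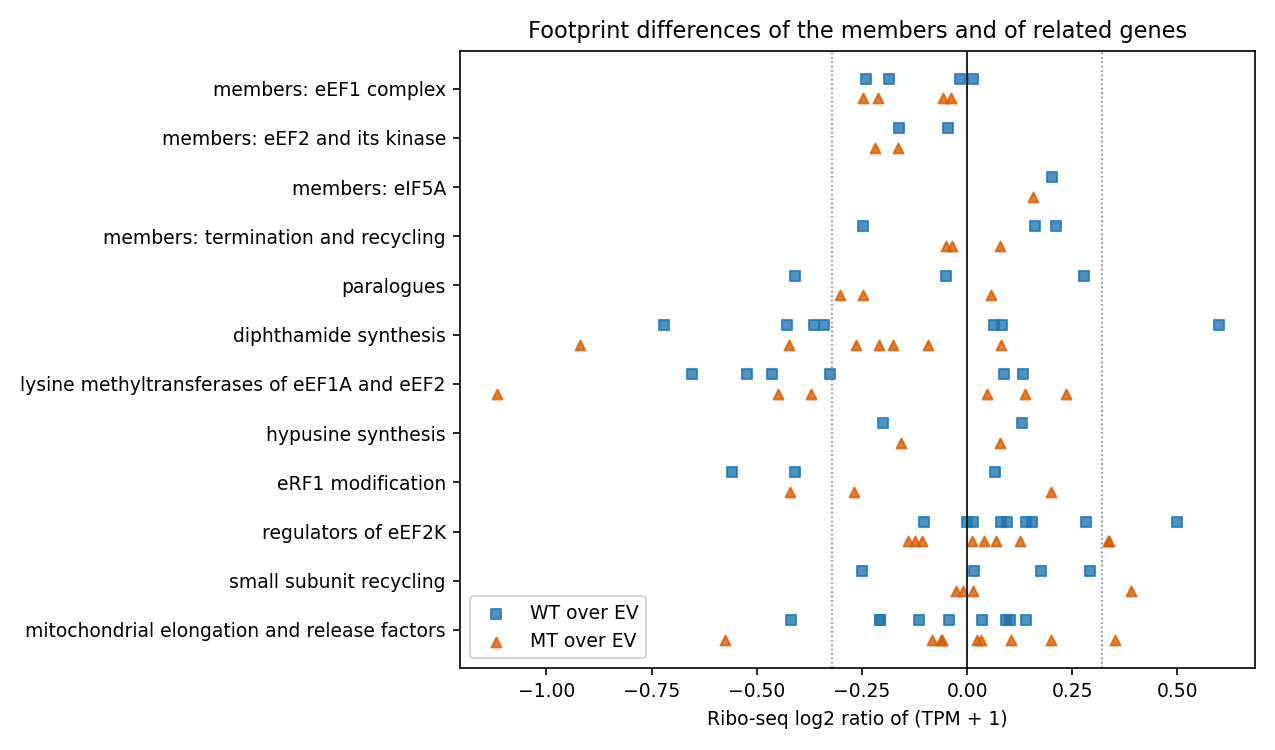
Ribo-seq log2 ratio of (TPM + 1) of WT over EV (squares) and MT over EV (triangles) for the members, by role, and for lists of related genes, 1 point per gene; dotted lines mark the 25% rule. The members lie between the dotted lines, and the points beyond them belong to related genes, most of them modifying enzymes with lower values. Several of these enzymes were under 10 TPM in every library.

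Among 562 genes at 100 units or more in every library, those with the 4 log2 ratios over EV nearest to EEF2 were EIF2S3, a subunit of the initiation factor eIF2 (Euclidean distance 0.0426), UBQLN1 (0.0752) and RANBP1 (0.0802). For EEF1A1 they were RANBP1 (0.0998), UBQLN1 (0.103) and EIF3E (0.105). The median distance was 0.380 from EEF2 and 0.390 from EEF1A1. These distances describe 6 libraries, and no function is read from them.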

How the data were processed

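RNA-seq and Ribo-seq were analysed from 1 deposited table of 20307 rows. The deposited RNA-seq columns have no unit in the file headers and were read as FPKM, since their sums differ between libraries (459938 to 469859). The deposited Ribo-seq columns were read as TPM, since each sums to 1000000. The submitters' processing notes name human genome build hg18; no source used here names the aligner, the counting or the annotation, and start sequences come from GRCh38.p14 instead. Rows without a symbol (605, 0.153% to 0.564% of a column sum) and 7 symbols with conflicting rows were left out.

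Python 3.11.15, pandas 2.3.3 and numpy 2.4.6 were used. The unscaled values were compared on log2(value + 1), which understates changes of low genes, for genes that reached 1 unit in a library of the comparison. Differences were called under a 2-fold or a 25% rule without a test, as each label has 1 library. The calculation was tested on simulated data. Members, lists and rules were chosen with earlier results of these data known. Besides the 10 members, related genes were named where they passed the 25% rule in footprints at 10 units or more (up to 4 a list). Otherwise the 2 most abundant were named, and initiation factors and ribosomal proteins are given by their medians. DPH1, DPH2, DPH7, EEF1AKMT3 and EEF2KMT were called under 10 TPM and named outside this rule, while some others of that kind were not named. TRMT112 was also named outside it. EEF1AKMT1, EIF5AL1 and GSPT2 were added after their values were seen. Alternatives changed the pseudocount, the minimum and the scaling.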

Additional observations from a re-analysis of the deposited data

How the results depend on the processing

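No paired analysis was possible because each label has 1 library per assay. Under all 45 alternative values the median over members moved by less than the spread across genes of 100 units or more (0.11 to 0.25, log2). The same held for 444 of 444 values of single members. This limit is wide, since the largest median shift over genes was -0.03 (Ribo-seq, WT over EV, centred). Changing the minimum cannot alter the value of a single member, and EEF2K mRNA does not reach the minimum of 10 units. Such counts could hardly have come out otherwise and do not show robustness. A sign changed in 4 of the single-member values, all within 0.02 of 0 (EEF1G in 3 and GSPT1 in 1). In the footprint-to-mRNA ratio of WT over EV, centring on the median ratio put 3 members past the 25% rule instead of 1. The added members, EEF2 and EEF1B2, lay just short of it before. Counts of all genes past 2-fold moved more, since low genes make up most of them. The order here is WT over EV, MT over EV and WT over MT. A pseudocount of 0.1 gave 177, 145 and 198 genes in RNA-seq, 694, 660 and 727 in Ribo-seq and 802, 725 and 876 in the ratio. A minimum of 10 units gave 15, 9 and 15, then 90, 85 and 101, then 83, 65 and 101. Rescaling without mitochondrially encoded genes, which enlarges the RNA-seq values against the pseudocount and the minimum, gave 158, 140 and 198 in RNA-seq. Without counts, the precision of EEF2K and of modifying enzymes near 10 units is unknown.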
